A study of Mus musculus with 2 samples.

Results

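Mir378a, the miRNA gene inside the metabolic coactivator gene Ppargc1b, was described here together with its relative Mir378b and with Gm25301, an annotated miRNA gene on the strand opposite Mir378a. These 3 genes, of 2202 miRNA genes counted, were chosen by name, and Mir378a was selected on its measured level, the highest mean over both libraries when reads are counted on a gene's own strand. That level is therefore given as a description and not tested. Mir378c and Mir378d, the other genes with a miR-378 symbol in the annotation, were added to make a list of 4 miR-378 genes. The samples were adrenal glands of male B6CASTF1/J mice at an age of 10 days, F1 hybrids of C57BL/6 and CAST/EiJ, with no further treatment or allele named in the labels. They formed 1 group of 2 libraries of short RNA, which the labels number as biological replicates 1 and 2 and assign to different males, and no second condition was present. The files held 7503044 reads in replicate 1 and 8907701 in replicate 2, of which 2843734 and 3080062 were assigned to miRNA genes on their own strand. Levels are in CPM, counts scaled to a total of 1000000 own-strand reads, and given as mean ± SD (n = 2).

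Mature miRNAs are cut from a hairpin and guide the silencing complex to mRNAs, mainly by pairing of the seed, bases 2 to 8 from the 5′ end. PGC-1beta, the protein of Ppargc1b, is a coactivator of nuclear receptors that drives mitochondrial and lipid oxidation genes, and the miRNA is transcribed with it. miR-378a is known from tissues of high oxidative metabolism, such as heart, skeletal muscle, brown fat and liver, where it restrains fatty acid oxidation through targets such as the carnitine acetyltransferase gene Crat and the Mediator subunit gene Med13. In the ovary it has been linked to aromatase, an enzyme of steroid synthesis. Steroid hormones are made in the adrenal cortex from stored lipid by mitochondrial and microsomal enzymes, and catecholamines in the chromaffin cells of the medulla.

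The mature sequences of the 3 less abundant genes are shown because their likeness decides which reads can be told apart. They come from RefSeq on GRCm38.p6, the sequence of mm10, with the seed in capitals. The mature forms lie at chr11:88352839-88352858 on the plus strand for Mir378b, chr14:46954905-46954925 on the minus strand for Mir378c and chr10:126710355-126710376 on the minus strand for Mir378d.
Mir378b: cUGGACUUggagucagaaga
Mir378c: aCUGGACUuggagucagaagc
Mir378d: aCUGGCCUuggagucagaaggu

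Mir378b and Mir378c shared an unbroken run of 19 bases. The annotated form of Mir378b starts 1 base later, which shifts its seed, and within the aligned bases the change is A20C, written as the base of Mir378b, its position from the 5′ end of Mir378b and the base of Mir378c. Mir378d differed from Mir378c by A6C and C21G, counted from the 5′ end of Mir378c, so their longest common run was 14 bases and the first of these changes lies in the seed.

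The 4 genes also differ in where they lie. By GENCODE M21 on mm10, Mir378a (ENSMUSG00000105200.1) occupies 66 bases of the minus strand of chromosome 18, from 61397835 to 61397900, in intron 1 of all 3 Ppargc1b transcripts, 2500 bases downstream of the start of Ppargc1b-201. It has the same direction as its host. Mir378b (ENSMUSG00000092985.1; chromosome 11, 88352773 to 88352864, plus strand) lies in intron 11 of Msi2, which encodes an RNA-binding protein, but against the direction of that gene. Mir378c (ENSMUSG00000099036.1; chromosome 14, 46954830 to 46954928, minus strand) likewise lies against the direction of its surrounding gene Samd4, in an intron of 131260 bases. Mir378d (ENSMUSG00000098756.1; chromosome 10, 126710282 to 126710391, minus strand) overlapped no annotated gene. Mir378a was therefore the only one of the 4 inside a host on its own strand. The mRNA of Ppargc1b is not among the rows of the files, and no value for the host was used here.

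Mir378a gave nearly all reads of the family. Replicate 1 gave it 238595 reads in its own direction and replicate 2 gave it 277625. These are 83902 CPM (95% Wilson interval 83580 to 84225) and 90136 CPM (89817 to 90457), a mean of 87019 ± 4408 CPM. Each library thus gave this 1 gene between 8.39% and 9.01% of its own-strand reads. The counting intervals of the 2 libraries did not overlap. The files count reads per hairpin, so the 2 arms, miR-378a-5p and miR-378a-3p, cannot be told apart.

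The other genes of the family were lower by 3 orders of magnitude or more. Mir378c had 199 and 215 reads, 70.0 CPM (60.9 to 80.4) and 69.8 CPM (61.1 to 79.8). Mir378d had 72 and 71 reads, 25.3 CPM (20.1 to 31.9) and 23.1 CPM (18.3 to 29.1). Mir378b had 7 and 13 reads, 2.46 CPM (1.19 to 5.08) and 4.22 CPM (2.47 to 7.22), a mean of 3.34 ± 1.24 CPM. The order Mir378a, Mir378c, Mir378d, Mir378b was the same in both libraries, and no interval of one gene reached that of its neighbour in this order. By mean level Mir378c had rank 226 of the 2202 genes, Mir378d rank 268 and Mir378b rank 374.

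**Figure D1:**
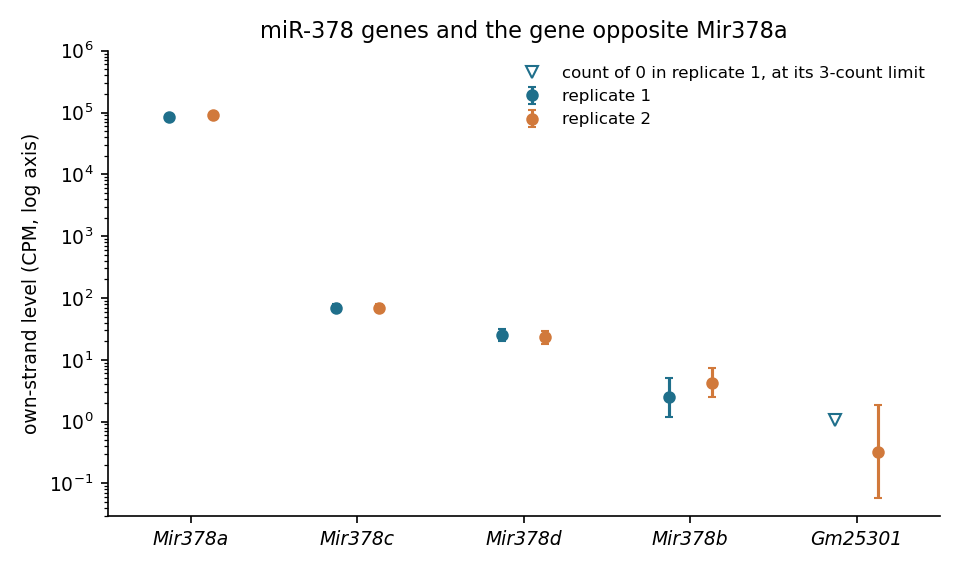
Own-strand level in CPM on a log axis for the 4 miR-378 genes and Gm25301, 1 point for each library with its 95% Wilson interval for counting error; the open triangle marks a count of 0 at the level of 3 counts. Mir378a stands at 83902 and 90136 CPM, and the other 4 genes at or below 70.0 CPM.

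Mir378a held 99.88% of the reads of the 4 genes in replicate 1 (exact 95% interval 99.87 to 99.90) and 99.89% in replicate 2 (99.88 to 99.90). For each read of Mir378c there were 1199 reads of Mir378a in replicate 1 and 1291 in replicate 2. Mir378b, Mir378c and Mir378d together had 278 and 299 reads, 0.116% and 0.108% of the family. The summed level of the 4 genes was 8.71% ± 0.44 of own-strand reads.

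The counts of the lesser genes rest on few distinguishing bases. Reads with more than 1 mapping place were assigned to no gene, and they were between 25.9% and 27.5% of all reads. Of 49 windows of 18 bases in the Mir378a hairpin, 3 were also found in a miRNA hairpin at another place in the genome, that of Mir378b or Mir378c. Gm25301, which covers the same bases on the other strand, was left out of this comparison as the same place. Of 47 windows of 20 bases 1 was, shared with Mir378c, and at 21 bases none of 46 was. The Mir378d hairpin shared no window of 18 bases with any other. A read of Mir378a of 21 bases or more that matches exactly thus had no miRNA hairpin at a second place to map to, while a shorter one from the shared run did. Places outside miRNA hairpins were not compared. The ratio of Mir378c to Mir378a was similar in both libraries, and whether some reads counted for Mir378b or Mir378c came from Mir378a was not tested. The read lengths and the mismatches allowed were not given in the sources used here.

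Gm25301 (ENSMUSG00000093026.1) is annotated from 61397813 to 61397925 on the plus strand, 113 bases long. It covers all 66 bases of the Mir378a hairpin and extends 25 bases beyond its 5′ end and 22 beyond its 3′ end. On its own strand Gm25301 had 0 reads in replicate 1, which allows up to 1.05 CPM (3 counts, for counting error only), and 1 read in replicate 2, or 0.325 CPM. It was at or under this limit in both libraries, so no fold and no ratio is given.

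**Figure D2:**
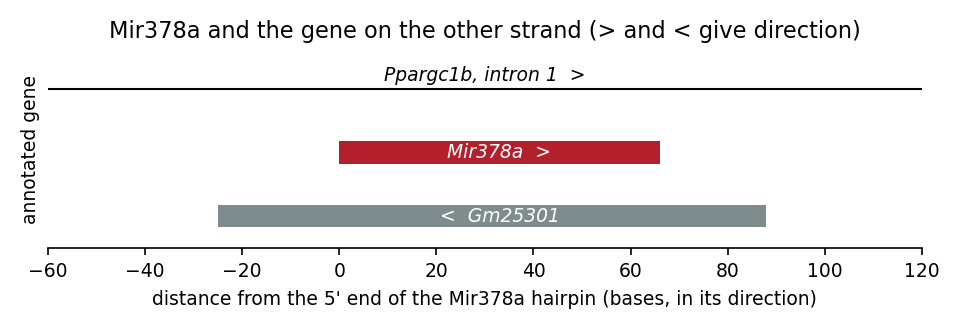
Map of the annotated hairpins in bases from the 5′ end of Mir378a, to scale, with arrowheads for direction. The 113 bases of Gm25301 enclose the 66 bases of Mir378a on the other strand, and both lie in intron 1 of Ppargc1b.

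The way reads are assigned decides whether Mir378a is seen at all. The files give each gene a count without strand, a count on its own strand and a count on the opposite strand. Without strand, Mir378a and Gm25301 were both listed at 0 in both libraries. The 238595 and 277625 own-strand reads of Mir378a reappear, to the read, as the opposite-strand count of Gm25301. Conversely the opposite-strand count of Mir378a was 0 and 1, the own-strand count of Gm25301. The 2 genes thus describe 1 set of reads, of which Gm25301 had 0% in replicate 1 (0 of 238595 reads, which allows up to 0.00126%) and 0.00036% in replicate 2. Mir378b, Mir378c and Mir378d overlap no miRNA gene and had the same counts with and without strand, with 0 reads on the opposite strand.

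**Figure D3:**
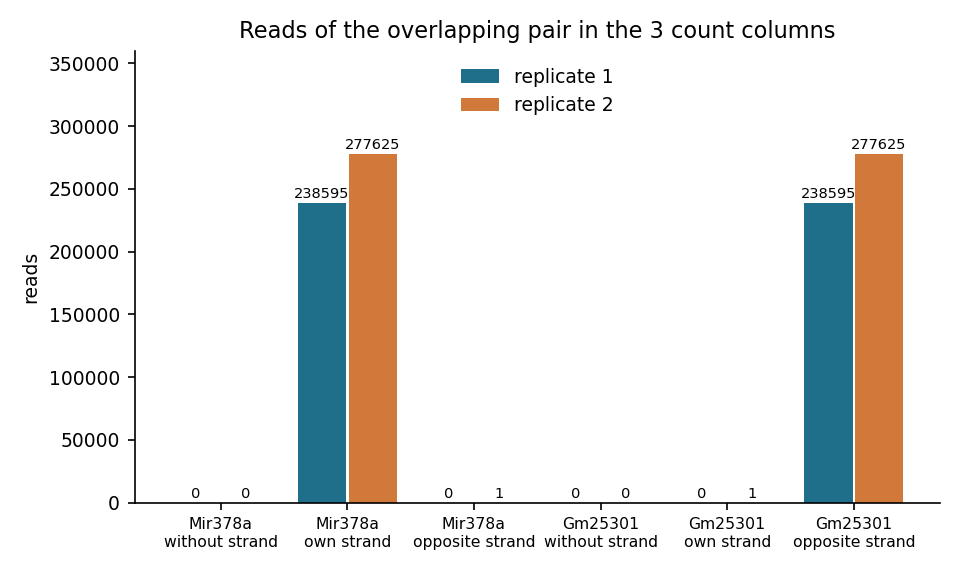
Reads of Mir378a and Gm25301 in the 3 count columns, 1 bar for each library with its count above it. All reads of the pair but 1 are own-strand reads of Mir378a and opposite-strand reads of Gm25301, and the counts without strand are 0.

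Mir378a was the largest single source of reads left ambiguous without strand over both libraries together, but not in each. Its reads made up 40.1% of the ambiguous reads of replicate 1 and 54.0% of those of replicate 2 (47.1% ± 9.87). Mir126a, an endothelial miRNA that overlaps Mir126b, and its partner held 40.3% and 27.1%. In replicate 1 the 2 pairs were close, with 238595 and 239644 reads lost, and in replicate 2 they were apart, with 277626 and 139383.

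Of 32 pairs of miRNA genes that overlap on opposite strands, 21 had at least 100 own-strand reads in each library. In each library the weaker strand was at 0 in 13 of the 20 pairs other than Mir378a with Gm25301, though not in all the same pairs. Among the deepest of these, Mir30e had 44056 and 13323 reads against 0 for Mir30f, Mirlet7e had 20914 and 34021 against 0 for Gm25927, and Mir191 had 19225 and 22660 against 0 for Gm24083. Their limits are wider than that of the Mir378a pair, up to 0.0225% for Mir30e in replicate 2. Mir126b had 40 and 19 reads, 0.0167% and 0.0136% of its pair. The weaker strand of the 20 pairs reached at most 29.5% in replicate 1 and 4.56% in replicate 2, both times for Mir24-1 with Mir3074-1. A weaker strand at or near 0 was therefore common among these pairs, and no test sets the Mir378a pair apart from them.

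By the level used to choose it, Mir378a ranked second in each library. In replicate 1 Mir126a was above it at 84263 CPM (83940 to 84586), an interval that overlaps that of Mir378a. In replicate 2 Mir122, the main miRNA of hepatocytes, was above it at 97850 CPM (97519 to 98182). Mirlet7g, of the let-7 family of differentiated cells, came next by mean with 78310 and 65841 CPM, a mean of 72075 ± 8817 CPM. Both its values were below both values of Mir378a. Mir126a followed with 84263 and 45250 CPM (64756 ± 27586), Mir122 with 29424 and 97850 CPM (63637 ± 48385), Mirlet7b with 38452 and 58288 CPM (48370 ± 14027) and Mirlet7i with 47161 and 43730 CPM (45445 ± 2426). Mir378a therefore lay above Mirlet7g, Mirlet7b and Mirlet7i in both libraries, while its order against Mir126a and Mir122 turned between them. Reads with more than 1 mapping place, 27.5% of replicate 1 and 25.9% of replicate 2, are outside this order. A gene with near-identical copies elsewhere can therefore stand too low in it. A read is 1 short fragment, so CPM was not divided by length. With division by hairpin length Mir378a was again at rank 1. That is no separate check, because its hairpin of 66 bases was no longer than those of the genes named above. Mir122 had 66 bases, Mir126a 73, Mirlet7b and Mirlet7i 85 and Mirlet7g 88.

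**Figure D4:**
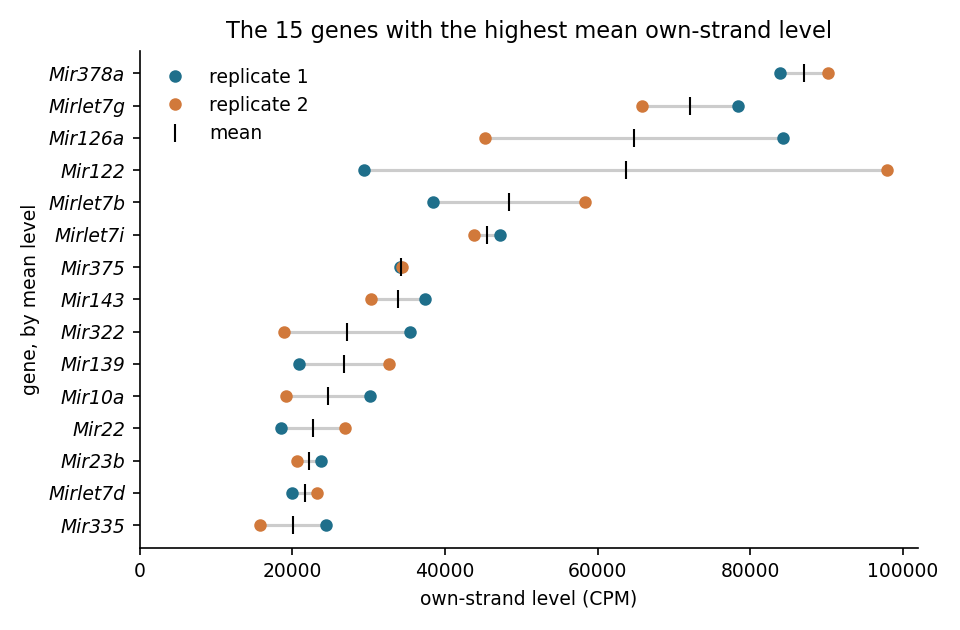
Own-strand level in CPM for the 15 genes with the highest mean, with 1 point for each library and a tick at the mean. Mir378a lies at 83902 and 90136 CPM. Mir122 lies below it in replicate 1 and above it in replicate 2, and Mir126a just above it in replicate 1 and below it in replicate 2.

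The 2 libraries were then compared, which bears on how steady these levels were between animals and not on any condition. Per own-strand read, Mir378a had a log2 ratio of replicate 2 over replicate 1 of 0.10 (95% counting interval 0.096 to 0.11), and per read in the file one of -0.03. Against counting error alone the first of these passed the exact two-sided binomial test, with a Benjamini-Hochberg adjusted p of 1.2e-144, as 59.0% of 444 tested genes did. Of 262 genes that passed, 127 were higher and 135 lower in replicate 2. In edgeR's exact negative binomial test, which allows for a spread between libraries (a coefficient of variation of 0.394, estimated from the same 2 libraries), Mir378a had an adjusted p of 1.00. That test called 2 of 444 genes (0.450%), 24 at an unadjusted p under 0.05, and by its construction it calls few.

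The sign of this small ratio depended on what the reads were divided by. Over all reads in the file, assigned or not, Mir378a took 3.18% of replicate 1 and 3.12% of replicate 2, a log2 ratio of -0.03. With TMM factors the ratio was 0.03, with DESeq2 size factors 0.13, and with Mir122 left out of the totals 0.21. At least 1000 CPM on average was reached by 85 genes. Of these, 12 had an own-strand log2 ratio nearer to 0 than Mir378a, and the median absolute ratio over the 85 was 0.44.

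None of the lesser genes passed the binomial test. Mir378b had a log2 ratio of 0.73 with a wide counting interval from -0.65 to 2.34 (adjusted p = 0.368 in the exact test). Mir378c had -0.0039, from -0.29 to 0.28, and Mir378d -0.14, from -0.63 to 0.36. The counts of Mir378c thus limit a difference far more closely than the few reads of Mir378b. Of the 4 genes Mir378a alone was called, higher per own-strand read and lower per read in the file, and 3 were not called. Over all 444 tested genes 59.0% were called, and 81 of the 85 genes of at least 1000 CPM on average. A call thus depends on depth and does not set Mir378a apart from the lesser genes. The median log2 ratio of the 4 genes was 0.05 beside 0.07 over all tested genes. Gm25301 had too few reads to be tested.

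The genes whose ratio lay nearest that of Mir378a, among the 85, were Mir541, of the imprinted Dlk1-Dio3 region, at 0.11, Mir191 at 0.12, Mir30a at 0.08, Mir423 at 0.04 and Mir744 at 0.03. Their log2 ratios differed from that of Mir378a by 0.0033 to 0.070. With 2 libraries this likeness rests on a single difference for each gene. Their levels were lower, from 2801 ± 55.4 CPM for Mir423 to 8177 ± 135 CPM for Mir744.

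**Figure D5:**
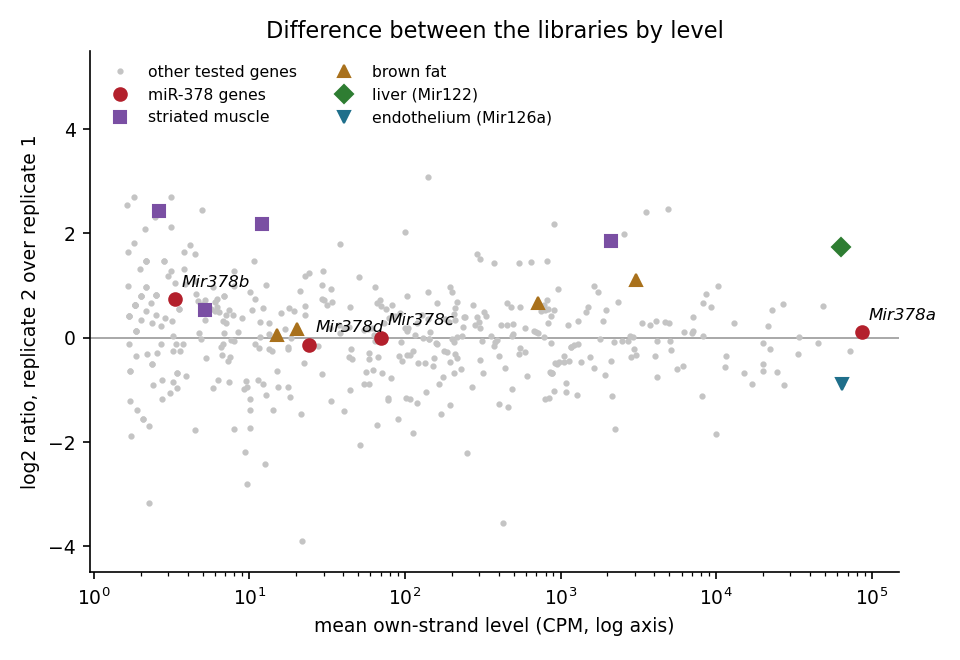
Log2 ratio of replicate 2 over replicate 1 against the mean own-strand CPM (log axis) for the 444 tested genes, 1 point each, with the miR-378 genes and 4 groups of markers coloured. Mir378a lies at 0.10 at the far right (-0.03 over all reads in the file), while Mir122 at 1.73 and Mir126a at -0.90 lie away from 0 at similar levels.

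Lists of markers of other tissues in which miR-378a is abundant were set beside it. Mir122, the single liver marker, stood at 35.1% of the level of Mir378a in replicate 1 and at 108.6% of it in replicate 2. The 9 striated muscle genes summed to 929 and 3337 CPM, 1.11% and 3.70% of Mir378a. Of them 4 could be tested, and 3 passed the exact binomial test with a higher level in replicate 2, beside 59.0% of all tested genes called in either direction. Mir206, a skeletal muscle miRNA, carried the sum with 919 and 3305 CPM, and Mir499 of slow muscle and heart had 4.22 and 19.8 CPM. Mir133a-2 was at 0 in both libraries, Mir1a-1 had 1 and 0 reads and Mir133a-1 and Mir208a had 0 and 1, but Mir1a and Mir133a have near-identical copies, so their reads can be lost to multiple mapping.

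The 4 brown fat genes summed to 2543 and 5104 CPM, 3.03% and 5.66% of Mir378a, with 2 of 4 called by the exact binomial test, both higher in replicate 2, a share near the 59.0% of all tested genes. Mir455, at 1953 and 4185 CPM, and Mir193b, at 557 and 882 CPM, both passed the exact binomial test. Mir365-1 and Mir365-2, copies with the same mature sequence, stood between 14.8 and 21.4 CPM, and their reads can be lost to multiple mapping. None of the 4 was at 0. In edgeR's exact negative binomial test none of the liver, muscle or brown fat genes was called, and 3 of the 9 tested, Mir122, Mir206 and Mir499, had an unadjusted p under 0.05. Per own-strand read, the sums of the muscle and brown fat lists and the level of Mir122 thus had their larger value in replicate 2. The log2 ratio of Mir378a was 0.10 on this scale and -0.03 per read in the file. In these whole glands, more cells of a type and more RNA per cell cannot be told apart, and the part of such cells in the level of Mir378a was not tested.

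Levels of other miRNAs in introns of sterol and coenzyme A genes are given as a description. Mir378a was chosen for the highest mean level, so a lower mean for these genes was fixed by that choice. Mir33, in the intron of the sterol regulator Srebf2, had 13.4 and 18.5 CPM. Mir107, in the pantothenate kinase gene Pank1, had 3190 and 2459 CPM, and its relatives Mir103-2 and Mir103-1 of Pank2 and Pank3 had 45.0 ± 4.93 and 6.32 ± 2.50 CPM. Mir103-1 and Mir103-2 have the same mature sequence, so their reads can be lost to multiple mapping. Their levels, and any sum that holds them, can therefore be too low. Carried by Mir107, the sum of the 4 genes reached 3.89% of the level of Mir378a in replicate 1 and 2.80% in replicate 2. Of them Mir107 was called lower in replicate 2, with a log2 ratio of -0.38, and the other 3 were not called, against 59.0% of all tested genes called.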

How the data were processed

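The authors deposited raw read counts per miRNA gene for 2 libraries, on mm10 with GENCODE M21, per the file descriptions. Aligner and counter were not given in the sources used here. From their values, the 3 count columns were read as without strand, own strand and opposite strand. Totals leave out the 4 rows of unassigned reads. Without molecular identifiers, intervals and limits of 3 counts cover counting error only.

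Own-strand CPM was computed over assigned reads (2843734 and 3080062), with 95% Wilson or exact intervals. Log2 ratios added 0.5 counts. The libraries, not conditions, were compared by an exact two-sided binomial test. It used a minimum of 10 counts in all, Benjamini-Hochberg adjustment over all genes tested and a threshold of 0.05. It was tried on simulated counts with counting error only. These had no spread between libraries, so they do not show how the test behaves on real replicates. Windows were compared between GENCODE hairpins on both strands.

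Members and gene lists (miR-378 genes, coenzyme A and sterol gene introns, brown fat, striated muscle, liver, endothelium, neuroendocrine cells, red cells, leukocytes) were chosen with earlier results of these data known. Named genes were members, lists, the 5 genes after Mir378a by mean level and those above it in 1 library, the 5 nearest in log2 ratio, and the 5 overlapping pairs with the most reads. Mir24-1 with Mir3074-1 was chosen after its values were seen. Alternatives were other denominators, TMM and DESeq2 factors, pseudocounts, count minimums, count columns, gene length, single replicates and edgeR's exact negative binomial test. Software: Python 3.11.15 with scipy 1.17.1, numpy 2.4.6, pandas 2.3.3 and matplotlib 3.10.9, and R 4.3.3 with DESeq2 1.42.0 and edgeR 4.0.16.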

Additional observations from a re-analysis of the deposited data

Results flagged for a closer look

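Reads outside the own-strand counts exceeded the limit of 3 counts. Gm25301 had 238595 opposite-strand reads in replicate 1 and 277625 in replicate 2, the same numbers as the own-strand reads of Mir378a. Reads with several mapping places were 27.5% of all reads in replicate 1 and 25.9% in replicate 2, and how many of them came from miR-378 genes cannot be read from the files.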

How the results depend on the processing

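For 8 main results 38 alternatives were run, and 25 of them kept the value within the spread between libraries, the call, or the count within 1.5 times. The 12 single replicates among the alternatives do so by construction for mean levels and shares. Division by gene length, also among the 25, is no separate check of the rank of Mir378a, for the reason given above. Other pseudocounts could not change the call, because the binomial test does not use them. The share of Gm25301 from the opposite-strand columns counts the same reads again. The 25 are therefore not 25 separate checks. The level of Mir378a was 31483 CPM over all reads in the file, 107134 CPM over reads assigned without strand and 93179 CPM with Mir122 left out of the total. The family share was 3.15% and 10.7% with the first 2 of these, and Mir378b had 1.20 CPM over all reads in the file. The log2 ratio of Mir378a was -0.029 over all reads in the file and 0.032, not called, in edgeR's exact negative binomial test, which called 2 genes in all. The median log2 ratio of tested genes was 0.07, against -0.06 over all reads in the file and 0.17 without Mir122, so these scalings shift all ratios alike. Mir378a had rank 762 without strand, where it is tied at 0, rank 63 on the opposite strand, and rank 2 in either single replicate. Depth limits Mir378b and Gm25301, with at most 13 reads in a library, and not Mir378a.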

Other observations

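Further markers are given beside Mir378a as values, with calls from the exact binomial test between libraries, which called 59.0% of 444 genes, 127 higher and 135 lower in replicate 2. The values leave out reads with more than 1 mapping place, so a gene with near-identical copies can stand too low. The 4 neuroendocrine genes, led by Mir375 of endocrine cells at 34264 ± 168 CPM, summed to 47.6% of the level of Mir378a in replicate 1 and 41.9% in replicate 2, with 3 lower in replicate 2 and 1, Mir375, not called. The red cell genes Mir451a and Mir144 were both lower in replicate 2, at 0.837% of Mir378a in replicate 1 and 0.310% in replicate 2. Of the leukocyte genes Mir150 was higher in replicate 2, at 292 and 786 CPM, and Mir142 was not called, at 390.3 and 368 CPM. The endothelial Mir126a stood at 100.4% of Mir378a in replicate 1 and 50.2% in replicate 2. In edgeR's exact negative binomial test none of these 9 genes was called, and 0 had an unadjusted p under 0.05.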
